A study of Homo sapiens with 32 samples.

Results

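The insulin-like growth factor (IGF) system of HGrC1 cells was followed through 10 genes, taken by their symbols from the 18583 genes with values in the deposited tables. They were the ligand genes IGF1 and IGF2, the receptor genes IGF1R and IGF2R, the binding protein genes IGFBP2, IGFBP3, IGFBP4, IGFBP5 and IGFBP6, and PAPPA, which encodes a protease that cleaves binding proteins. HGrC1 is a human cell line derived from granulosa cells, the somatic cells around the oocyte in the ovarian follicle, that had not luteinized. Poly(A) RNA was sequenced in 32 libraries, in 8 groups of 4: vehicle control (0.05% DMSO) and 0.01, 0.1 and 1 µM perfluorooctane sulfonate (PFOS), a persistent fluorinated surfactant, each after 6 and 12 weeks with renewed dosing at every passage. All groups carried the same line in serum-supplemented medium with an added steroid, which is estradiol in the sample labels and testosterone in the study's methods. The 4 replicates were separately thawed vials of this line, each split over the 4 treatments, so the p-values below measure the spread between cultures of a single line. By the study's methods the exposure ran for 12 weeks with passaging, and RNA was taken after 6 and 12 weeks. Libraries of both times with the same vial and treatment thus come from the same exposure course. The main test treats them as independent.

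In this system the ligands IGF1 and IGF2 bind IGF1R, a receptor tyrosine kinase that signals through IRS proteins to the PI3K–AKT and MAPK pathways and promotes growth and survival. IGF2R carries no kinase and removes IGF2 from the cell surface for degradation in lysosomes. The binding proteins hold IGFs outside the cell and can withhold them from the receptor, until proteases such as PAPPA, whose substrates include IGFBP4 and IGFBP5, release the ligand. In the ovary, IGFs act together with follicle-stimulating hormone on granulosa cells, and cleavage of IGFBP4 by granulosa cell PAPPA is a known feature of the dominant follicle.

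Total counts lay between 17907067 and 18553355 per library, so depth differed little between groups. Among 12 granulosa cell markers, 11 had a count in at least 1 library. GATA4 (2040 to 2816 counts per library), WT1 (1012 to 1450) and AMH (191 to 319) were present, whereas the aromatase gene CYP19A1 had 0 or 1 count and AMHR2 0 to 3 in every library, and FSHR had no values. HSD17B1 (43 to 86), INHBA (123 to 412) and STAR (16 to 81) were counted in every library. FOXL2 (10 to 37), INHA (8 to 31) and NR5A1 (0 to 14) were low. The third control library at 12 weeks stood apart: the summed count of 12 liver transcripts (AFP, ALB and others) was 1709 there and 305 to 652 in the other 31 libraries. Where leaving this library out changed a call or a direction that is stated below for a single gene, both values are given. SERPINA1, TF and APOA1 of that list had at least 41 counts in every library, and the other 9 reached 0 in at least 1 library. Time in culture, passage number and any difference in handling between the 6-week and 12-week cultures cannot be told apart.

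Of the 10 genes, 9 passed the filter on low counts in every fit, and IGF1 did not. On the TPM scale, in which transcript abundance is corrected for gene length and library size, the median level over the 32 libraries was highest for IGFBP6 (80.3 TPM), followed by IGFBP4 (59.4 TPM), IGF2R (30.7 TPM) and IGF1R (18.1 TPM). IGFBP3 (8.45 TPM), IGFBP5 (3.56 TPM), IGFBP2 (1.80 TPM), PAPPA (1.11 TPM) and IGF2 (0.725 TPM) were lower, and IGF1 had a median of 0 TPM. Both receptors and 2 binding proteins were thus expressed well above the ligands in this line. IGFBP7, a distant relative that binds insulin-like peptides only weakly, had a higher median (612 TPM) than any of the 10.

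Promoter sequences of the 4 genes with the clearest contrasts are shown: IGFBP5 and IGFBP3 because they moved furthest in opposite directions between 6 and 12 weeks, and IGFBP4 and PAPPA because they form a substrate and protease pair and both fell. Each is the 250 bases that precede the gene's start in RefSeq (GRCh38.p14), written 5′ to 3′ on the gene's strand: chr2:216695550-216695799 (minus strand) for IGFBP5, chr7:45921273-45921522 (minus strand) for IGFBP3, chr17:40443200-40443449 (plus strand) for IGFBP4 and chr9:116153541-116153790 (plus strand) for PAPPA. Capitals mark matches on either strand to 3 motifs, none of which overlapped another. They were the TATA box, searched as TATAAA, the CCAAT box, searched by its name, and the GC box, searched as GGGCGG. Of 35116 promoters in the same table, 10.7% held TATAAA, 32% CCAAT and 42.6% GGGCGG in this window, and 9 of the 10 genes had an entry; IGF2 had none.
IGFBP5: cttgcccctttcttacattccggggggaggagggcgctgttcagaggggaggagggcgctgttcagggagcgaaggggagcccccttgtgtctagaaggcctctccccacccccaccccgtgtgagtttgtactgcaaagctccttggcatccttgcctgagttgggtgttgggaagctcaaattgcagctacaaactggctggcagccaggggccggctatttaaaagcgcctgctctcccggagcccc
IGFBP3: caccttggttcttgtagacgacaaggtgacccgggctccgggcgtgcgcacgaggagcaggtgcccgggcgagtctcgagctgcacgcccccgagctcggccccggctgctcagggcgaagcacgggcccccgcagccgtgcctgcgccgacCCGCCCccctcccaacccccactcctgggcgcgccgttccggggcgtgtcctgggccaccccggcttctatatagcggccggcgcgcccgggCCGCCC
IGFBP4: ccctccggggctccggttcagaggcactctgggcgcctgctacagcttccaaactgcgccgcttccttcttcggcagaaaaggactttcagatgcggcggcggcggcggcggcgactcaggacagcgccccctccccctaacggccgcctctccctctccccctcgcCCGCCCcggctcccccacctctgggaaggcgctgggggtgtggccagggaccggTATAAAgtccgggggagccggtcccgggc
PAPPA: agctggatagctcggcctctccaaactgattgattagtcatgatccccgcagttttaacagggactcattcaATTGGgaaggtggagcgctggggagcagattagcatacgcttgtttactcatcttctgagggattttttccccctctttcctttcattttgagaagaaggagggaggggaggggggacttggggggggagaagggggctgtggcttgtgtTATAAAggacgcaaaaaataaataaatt
IGFBP4 and PAPPA both held TATAAA close to the start, with its first base at −29 and −28, counted from −1 at the base before the start. IGFBP3 held 2 GC boxes (first bases at −98 and −6), IGFBP4 1 (−83) and PAPPA a CCAAT box (−178). IGFBP5 held none of the 3 strings searched, and variants of these motifs were not searched in any of the genes. GC content was 61.2% for IGFBP5, 76% for IGFBP3, 71.6% for IGFBP4 and 48% for PAPPA, against a median of 58% over all promoters. These matches describe the letters in this window and were not tested for binding.

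**Figure D1:**
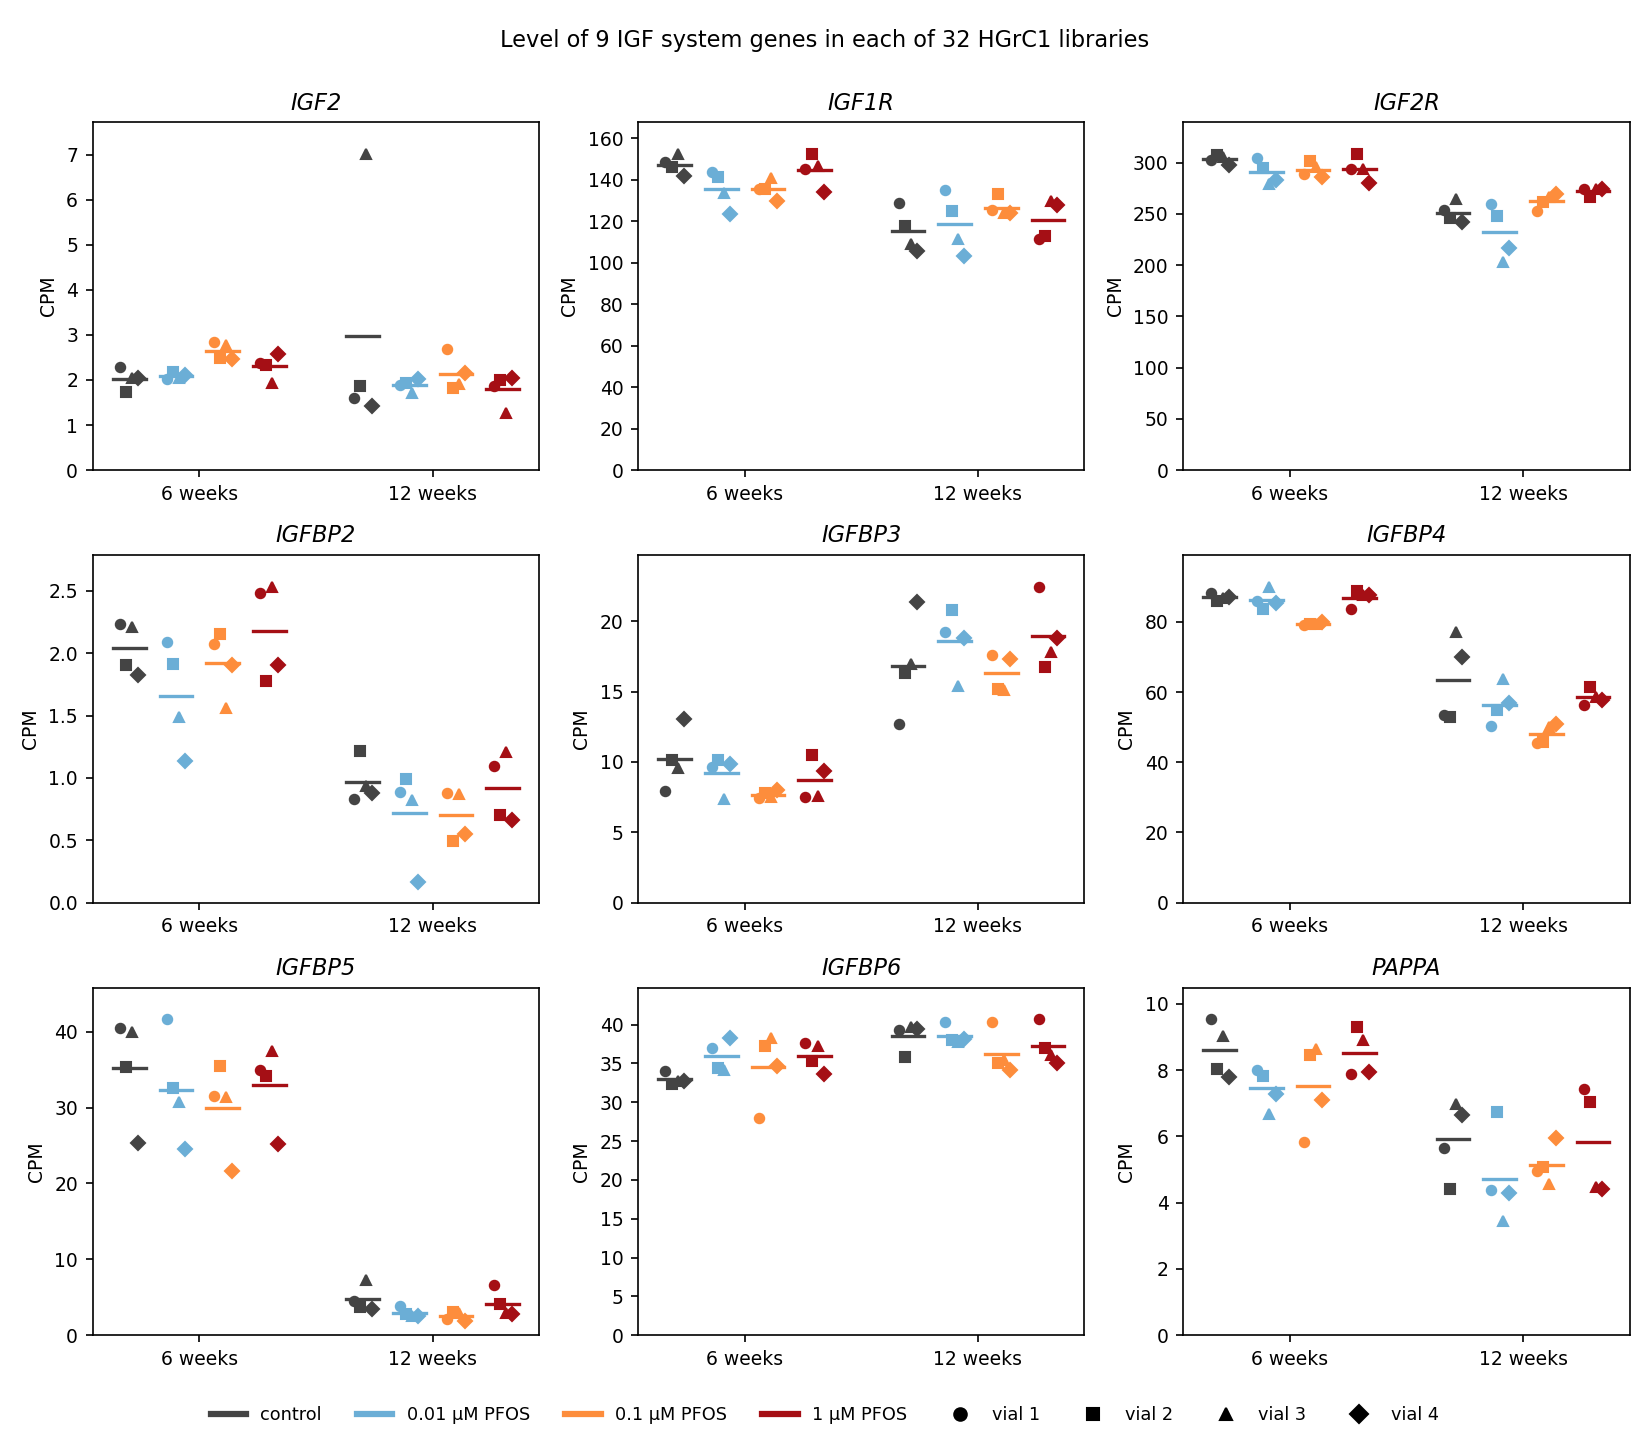
CPM, the count scaled by normalized library size (linear axis from 0), of 9 genes in each library, grouped by time and colored by treatment; symbols are vials 1 to 4 and horizontal lines are means of 4 libraries. IGFBP5 lay between 21.6 and 41.7 CPM at 6 weeks and between 1.87 and 7.24 CPM at 12 weeks, IGFBP3 moved the other way, and 1 control library at 12 weeks reached 7.02 CPM of IGF2.

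Ligand transcripts were scarce. IGF1 (gene ID 3479, chr12:102395874-102481839, minus strand), the ligand made mainly by the liver, had 0 counts in 31 of 32 libraries and 1 count in the second library with 1 µM PFOS at 6 weeks. A count of 0 allows up to 3 counts per library, which covers counting error only. The exact two-sided permutation test of 4 libraries against 4 gave p = 1 in each comparison of IGF1. With 0 counts in 31 of 32 libraries it could give no other value, so no conclusion is drawn from it.

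IGF2 (gene ID 3481, chr11:2129117-2149566, minus strand), the growth factor that dominates in human follicles, was detected at low counts in every library. The control at 6 weeks had 42, 32, 37 and 37 counts and the control at 12 weeks 29, 34, 128 and 26, listed by vial. The 128 counts belong to the library with 1709 liver counts, and the other 31 libraries held 23 to 52. At 6 weeks IGF2 had 37 to 40 counts with 0.01 µM PFOS, 44 to 52 with 0.1 µM and 35 to 46 with 1 µM, and at 12 weeks 31 to 36, 33 to 49 and 23 to 37. Apart from the 1 control library, all groups lay within 23 to 52 counts. The group with 0.1 µM at 6 weeks lay above its control, a difference that did not pass and is described below. IGF2 passed the test in none of the 4 comparisons of 12 with 6 weeks. In the control its log2 fold change was 0.55 ± 0.31 (SE; edgeR quasi-likelihood test with Benjamini-Hochberg adjustment, adjusted p = 0.163) with this library and −0.31 (adjusted p = 0.196) without it. Across all 32 libraries Pearson's r between IGF2 and the liver sum, both scaled to library size on the log2 scale, was 0.714, and over the 31 others 0.208, given as a description of libraries that share groups and vials. Reads that IGF2 shares with the read-through gene INS-IGF2, which had no values in the table, could not be separated.

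**Figure D2:**
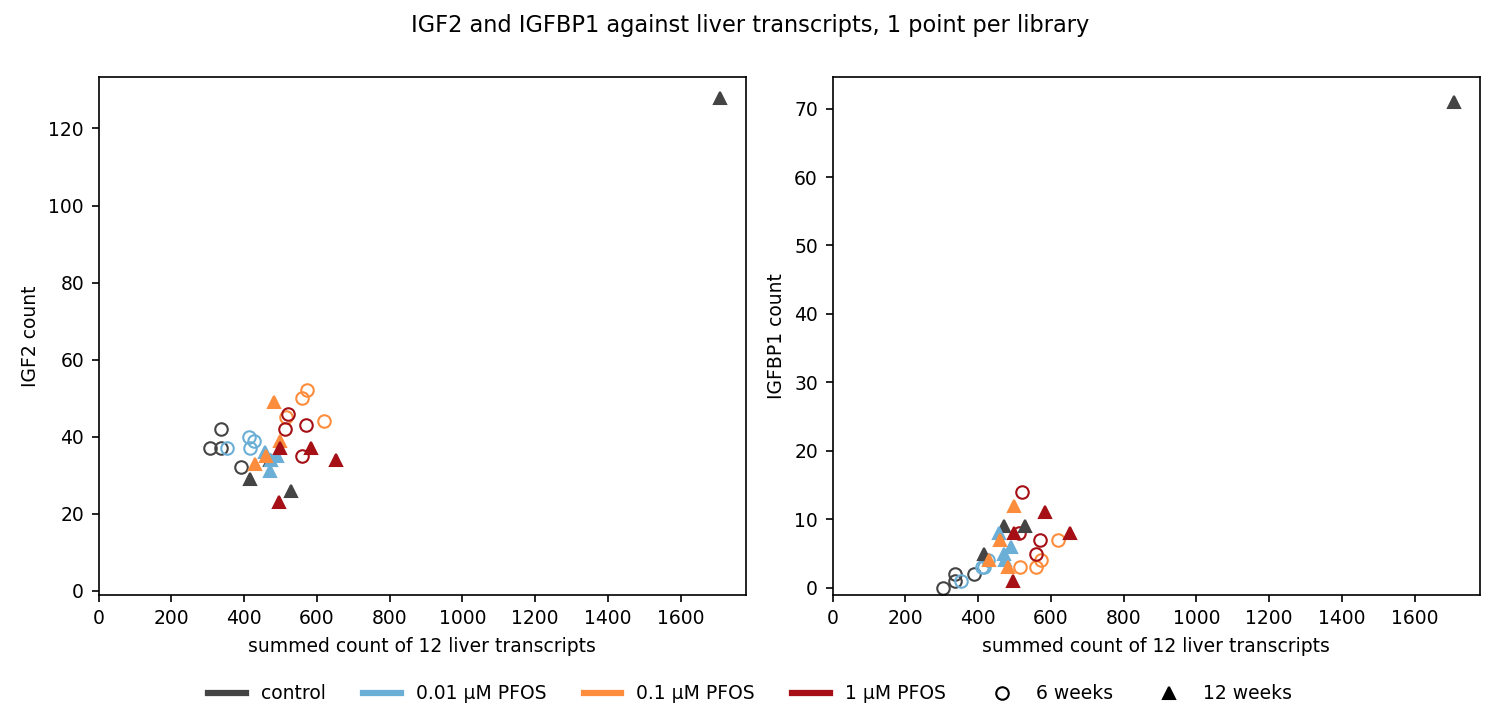
Counts of IGF2 (left) and IGFBP1 (right) against the summed count of 12 liver transcripts, 1 point per library, open circles for 6 weeks and filled triangles for 12 weeks, colored by treatment. A single control library at 12 weeks lies at 1709 liver counts with 128 counts of IGF2 and 71 of IGFBP1, apart from the other 31.

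Both receptor genes were lower at 12 than at 6 weeks in the control, and each passed in 3 of the 4 treatments. IGF1R (gene ID 3480, chr15:98648539-98964530, plus strand) had 149, 146, 152 and 142 CPM in the control at 6 weeks and 129, 118, 109 and 105 CPM at 12 weeks, listed by vial, with no overlap. The log2 fold change was −0.36 ± 0.067 (SE, n = 4 against 4, adjusted p = 9.35e-05) in the control, −0.20 ± 0.067 (adjusted p = 0.0176) with 0.01 µM, −0.095 ± 0.067 (adjusted p = 0.266) with 0.1 µM and −0.26 ± 0.067 (adjusted p = 0.00333) with 1 µM PFOS. PFOS groups averaged 136 ± 9.12 (SD, n = 4), 135 ± 4.51 and 144 ± 7.74 CPM at 6 weeks and 119 ± 14.1, 127 ± 4.26 and 120 ± 9.59 CPM at 12 weeks, at 0.01, 0.1 and 1 µM. Without replicate 2 the call was lost with 1 µM (adjusted p = 0.0720), and without replicate 2 or 3 with 0.01 µM (adjusted p = 0.0647 and 0.115). In fits of only the 8 libraries compared, IGF1R did not pass with 0.01 µM (adjusted p = 0.0586) and passed with 0.1 µM (adjusted p = 0.0341).

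IGF2R (gene ID 3482, chr6:159969082-160111504, plus strand), the clearance receptor, had 303, 307, 305 and 298 CPM in the control at 6 weeks and 254, 246, 264 and 242 CPM at 12 weeks. These values did not overlap. It fell by 0.27 on the log2 scale in the control (SE 0.050, adjusted p = 4.99e-05), by 0.33 with 0.01 µM (SE 0.050, adjusted p = 2.31e-06) and by 0.16 with 0.1 µM PFOS (SE 0.050, adjusted p = 0.0115), and its log2 fold change was −0.11 ± 0.050 (adjusted p = 0.0982) with 1 µM. In order of concentration, PFOS groups averaged 290 ± 11.8, 293 ± 6.59 and 294 ± 11.5 CPM (SD, n = 4) at 6 weeks and 232 ± 26.5, 263 ± 7.28 and 273 ± 3.77 CPM at 12 weeks. The call with 0.1 µM was lost without replicate 2 (adjusted p = 0.0718), and that with 1 µM was gained in a fit of only the 8 libraries compared (adjusted p = 0.0323).

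The binding proteins carried the largest changes with time in culture, and they did not move together. Between 6 and 12 weeks, 8 of the 9 tested genes passed the test in the control (2 higher and 6 lower), where 36.6% of all 12988 tested genes passed (17.3% higher and 19.3% lower). With 0.01 µM PFOS 7 of 9 passed (1 higher and 6 lower; 42.7% of all genes, 21.4% higher and 21.3% lower). With 0.1 µM 6 of 9 passed (1 higher and 5 lower; 40.3% of all genes, 19.7% higher and 20.6% lower), and with 1 µM likewise 6 of 9 (1 higher and 5 lower; 30.0% of all genes, 14.2% higher and 15.9% lower). The median log2 fold change of the 9 genes lay between −0.36 and −0.30 in the 4 treatments and that of all genes between 0.0040 and 0.010. The 4 comparisons use separate libraries of the same 4 vials. Changes of at least 2-fold were found for IGFBP2 and IGFBP5 in all 4 treatments and for IGFBP3 in the 3 PFOS groups (2 of 9 genes in the control, where 3.32% of all genes passed at this size, and 3 of 9 with PFOS, against 3.49%, 3.83% and 3.09% at 0.01, 0.1 and 1 µM). Some markers of other cell types also moved with time. The summed count of 3 of 3 endothelial markers was 29 to 45 at 6 weeks and 10 to 24 at 12 weeks, with PECAM1 at 0 in at least 1 library. That of 2 of 3 leukocyte markers was 352 to 502 and 244 to 398, ranges that overlapped. Of these, CD3E had 0 counts in all libraries, PTPRC 0 to 8 and CD68 243 to 497. Epithelial sums overlapped between the times (86394 to 103448 and 92531 to 116971). Sums of theca and stroma markers (35279 to 44390 and 30436 to 49578) and oocyte markers (326 to 440 and 378 to 530) overlapped as well. Few genes dominated them: KRT8 and KRT18 the epithelial sums, COL1A1 (29323 to 48482 counts) those of theca and stroma, and ZP3 (321 to 527) those of the oocyte. These sums thus say little about the other genes of each list. The part of all these markers in the changes with time was not tested. In these bulk cultures fewer cells that express a gene and less RNA per cell cannot be told apart.

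IGFBP5 (gene ID 3488, chr2:216672105-216695549, minus strand), a binding protein that also attaches to extracellular matrix, fell most. Control libraries held 40.5, 35.4, 39.9 and 25.3 CPM at 6 weeks and 4.54, 3.75, 7.24 and 3.51 CPM at 12 weeks, listed by vial. With PFOS the 12 libraries at 6 weeks held 21.6 to 41.7 CPM and the 12 at 12 weeks 1.87 to 6.59 CPM. Every library at 6 weeks thus lay above every library at 12 weeks. The fall was 7.42-fold in the control (log2 fold change −2.89 ± 0.24, adjusted p = 1.84e-09), 10.95-fold with 0.01 µM (−3.45 ± 0.26, adjusted p = 3.51e-10), 12.0-fold with 0.1 µM (−3.58 ± 0.27, adjusted p = 3.40e-10) and 8.04-fold with 1 µM PFOS (−3.01 ± 0.25, adjusted p = 2.22e-09). Without the third control library at 12 weeks, which had the highest IGFBP5 level of its group, the control value was −3.17. IGFBP5 passed in all 10 alternative fits of each of the 4 comparisons.

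IGFBP2 (gene ID 3485, chr2:216632828-216664436, plus strand), the neighbor of IGFBP5 on the chromosome, was low and fell as well. It had 41, 35, 40 and 33 counts in the control at 6 weeks and 15, 22, 17 and 16 counts at 12 weeks, without overlap. PFOS libraries held 21 to 46 counts at 6 weeks and 3 to 22 counts at 12 weeks. The log2 fold change was −1.08 ± 0.25 (adjusted p = 0.000974) in the control, −1.20 ± 0.28 (adjusted p = 0.000633) with 0.01 µM, −1.45 ± 0.27 (adjusted p = 5.78e-05) with 0.1 µM and −1.24 ± 0.25 (adjusted p = 0.000277) with 1 µM PFOS. With 3 to 46 counts per library these values carry more counting error than those of the other binding proteins.

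IGFBP3 (gene ID 3486, chr7:45912245-45921272, minus strand), the main carrier of IGFs in serum, moved in the opposite direction. Control libraries held 7.96, 10.2, 9.595 and 13.1 CPM at 6 weeks and 12.7, 16.3, 16.9 and 21.4 CPM at 12 weeks, listed by vial. The lowest library at 12 weeks lay below the highest at 6 weeks in the control, but within each vial the later library was higher. In the 3 PFOS treatments the times did not overlap, with group means of 9.25 ± 1.25, 7.68 ± 0.260 and 8.74 ± 1.44 CPM (SD, n = 4) at 6 weeks and 18.6 ± 2.27, 16.3 ± 1.35 and 18.98 ± 2.47 CPM at 12 weeks. IGFBP3 rose 1.65-fold in the control (log2 fold change 0.72 ± 0.14, adjusted p = 0.000143), 2.00-fold with 0.01 µM (1.00 ± 0.14, adjusted p = 1.16e-06), 2.12-fold with 0.1 µM (1.09 ± 0.14, adjusted p = 6.69e-07) and 2.17-fold with 1 µM PFOS (1.12 ± 0.14, adjusted p = 4.18e-07).

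IGFBP4 (gene ID 3487, chr17:40443450-40457725, plus strand), the inhibitory binding protein that PAPPA cleaves, was the most abundant of those that fell. Control libraries held 88.2, 86.1, 86.9 and 87.2 CPM at 6 weeks and 53.6, 52.8, 77.1 and 70.02 CPM at 12 weeks. The spread widened from an SD of 0.876 to 12.1 CPM, and the times did not overlap. With PFOS the group means were 86.3 ± 2.70, 79.5 ± 0.368 and 87.0 ± 2.33 CPM (SD, n = 4) at 6 weeks and 56.4 ± 5.59, 48.0 ± 2.82 and 58.6 ± 2.14 CPM at 12 weeks. IGFBP4 fell by 0.46 on the log2 scale in the control (SE 0.073, adjusted p = 9.31e-06), by 0.62 with 0.01 µM (SE 0.074, adjusted p = 6.69e-08), by 0.72 with 0.1 µM (SE 0.075, adjusted p = 4.73e-09) and by 0.57 with 1 µM PFOS (SE 0.074, adjusted p = 5.57e-07). Its protease PAPPA (gene ID 5069, chr9:116153791-116402321, plus strand) fell in the same comparisons, from 9.54, 8.05, 9.04 and 7.80 CPM to 5.64, 4.42, 6.96 and 6.64 CPM in the control. The log2 fold change of PAPPA was −0.54 ± 0.16 (adjusted p = 0.00855) in the control, −0.66 ± 0.17 (adjusted p = 0.00208) with 0.01 µM, −0.54 ± 0.17 (adjusted p = 0.00989) with 0.1 µM and −0.54 ± 0.16 (adjusted p = 0.0109) with 1 µM PFOS. Its PFOS groups averaged 7.45 ± 0.599, 7.51 ± 1.3 and 8.52 ± 0.710 CPM at 6 weeks and 4.72 ± 1.40, 5.14 ± 0.584 and 5.84 ± 1.61 CPM at 12 weeks, and the times overlapped with 0.01 and 0.1 µM. The PAPPA call was lost without replicate 1 in the control (adjusted p = 0.0649), without replicate 3 with 0.1 µM (adjusted p = 0.0859) and without replicate 3 or 4 with 1 µM (adjusted p = 0.104 and 0.0892).

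IGFBP6 (gene ID 3489, chr12:53097667-53102340, plus strand), which prefers IGF2 over IGF1, was the steadiest binding protein. It held 34.1, 32.4, 32.8 and 32.8 CPM in the control at 6 weeks and 39.3, 35.9, 39.7 and 39.4 CPM at 12 weeks, with no overlap. It rose by a log2 fold change of 0.22 ± 0.067 (adjusted p = 0.00907) in the control, a call that was lost without replicate 3 (adjusted p = 0.0563) or 4 (adjusted p = 0.0550). With PFOS its log2 fold changes were 0.096, 0.072 and 0.053 at 0.01, 0.1 and 1 µM (adjusted p = 0.252, 0.415 and 0.592), and the groups overlapped. Their means lay between 34.5 and 36.0 CPM at 6 weeks and between 36.2 and 38.6 CPM at 12 weeks.

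**Figure D3:**
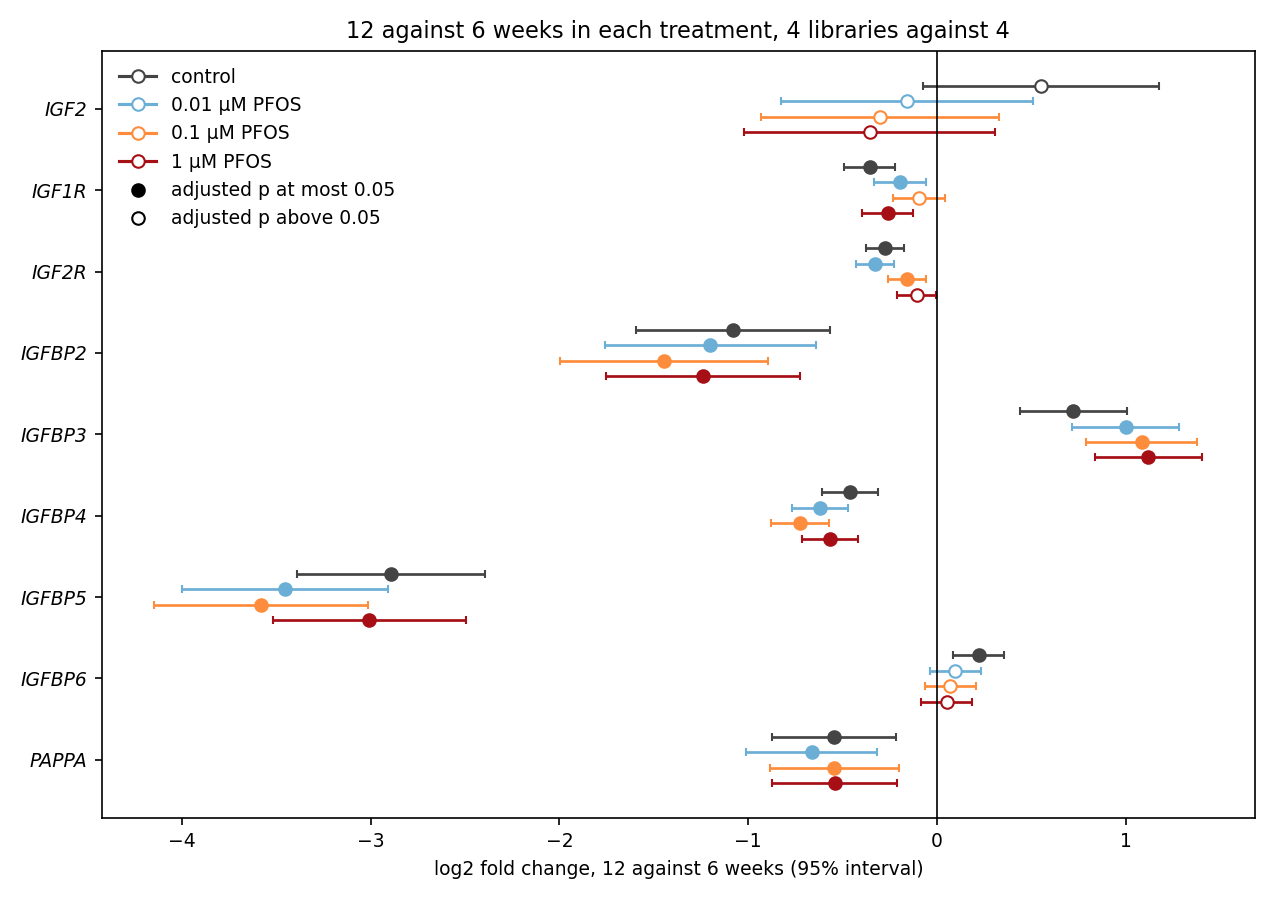
Log2 fold change at 12 against 6 weeks (horizontal axis) of 9 genes in the control and the 3 PFOS treatments, with 95% intervals from the fit of 32 libraries; filled circles have an adjusted p of at most 0.05. IGFBP5 lies between −3.58 and −2.89, IGFBP2 between −1.45 and −1.08 and IGFBP3 between 0.72 and 1.12 in the 4 treatments.

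The make-up of the binding protein transcripts shifted accordingly. As shares of the summed TPM of the 5 binding protein genes, IGFBP4 made up 42.4% ± 0.482 (SD, n = 4) in the control at 6 weeks and 32.9% ± 3.29 at 12 weeks. IGFBP5 went from 5.55% ± 1.04 to 0.80% ± 0.236, IGFBP3 from 4.13% ± 0.913 to 7.29% ± 1.25 and IGFBP6 from 46.0% ± 0.557 to 58.0% ± 3.87. IGFBP2 contributed 1.88% ± 0.384 and 0.936% ± 0.219. The sum itself was 165 ± 3.87 TPM at 6 weeks and 145 ± 11.7 TPM at 12 weeks. With PFOS the mean shares at 12 weeks were 28.7 to 31.9% for IGFBP4 and 57.9 to 62.0% for IGFBP6. These shares are a description, with no test, since they must add up to the whole.

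**Figure D4:**
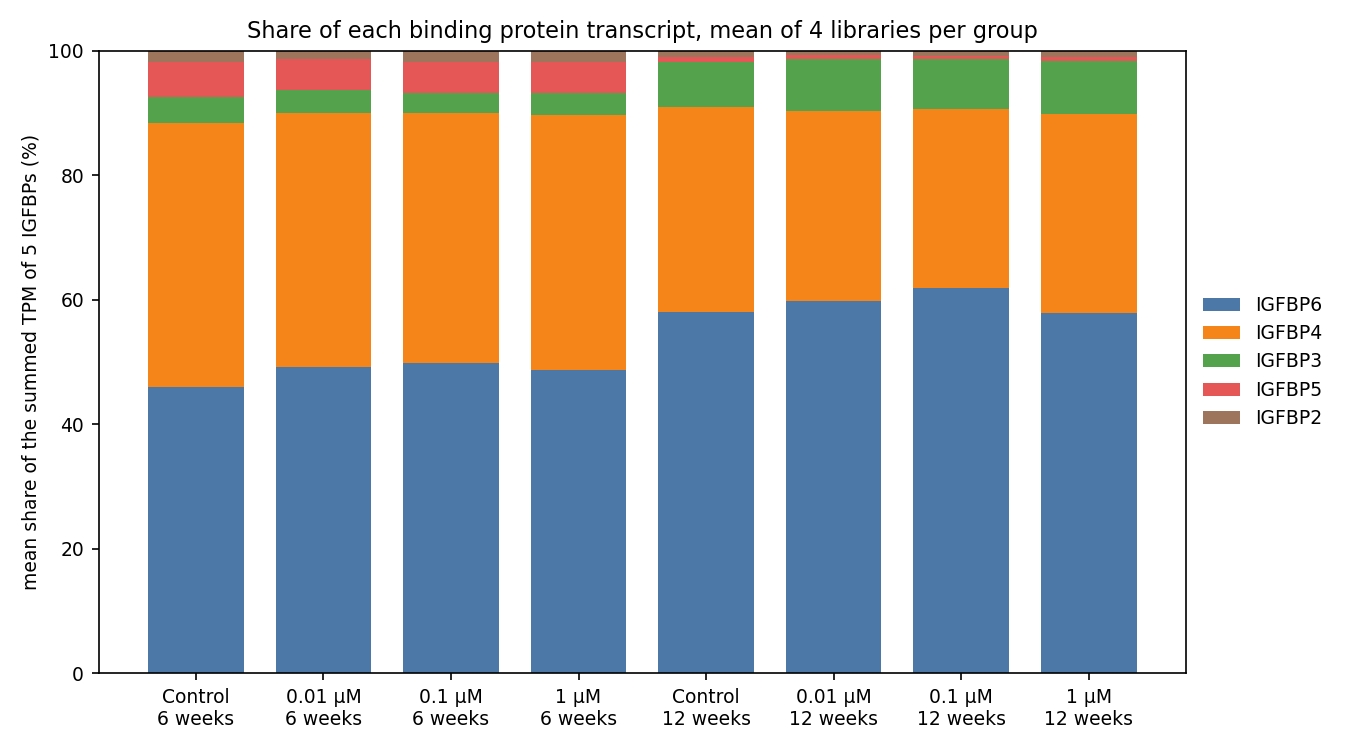
Mean share (%, stacked from 0 to 100, 4 libraries per bar) of each of 5 binding protein genes in their summed TPM, by treatment and time. IGFBP5 shrinks from 5.55% to 0.80% and IGFBP3 grows from 4.13% to 7.29% between the control bars at 6 and 12 weeks.

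Against the control, 1 of these genes passed in 1 comparison and none did by at least 2-fold, the size that the study also required. The study asked which transcripts respond to long exposure at concentrations found in human serum and follicular fluid, and each PFOS group was compared with the control of its own time. At 6 weeks 0, 1 and 0 of the 9 tested genes passed at 0.01, 0.1 and 1 µM, where 0%, 4.24% and 0.280% of all 12836 tested genes passed. At 12 weeks 0, 0 and 0 of 9 passed, against 0%, 1.07% and 0.220% of 12742 genes. At an unadjusted p under 0.05 there were 1, 4 and 0 of the 9 at 6 weeks and 1, 2 and 0 at 12 weeks, beside 9.6%, 20.8% and 13.7% of all genes at 6 weeks and 8.48%, 15.4% and 8.74% at 12 weeks. DESeq2 called 0, 1 and 0 at 6 weeks and 0, 2 and 0 at 12 weeks, against 5.27% and 2.21% of all genes that it tested at 0.1 µM and 6 and 12 weeks. The 3 comparisons of each time share their control libraries.

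The 1 gene that passed was IGFBP4 with 0.1 µM PFOS at 6 weeks. The control held 88.2, 86.1, 86.9 and 87.2 CPM and the exposed cells 79.1, 79.4, 79.6 and 79.9 CPM, so all 4 exposed libraries lay below all 4 controls. IGFBP4 fell by 0.13 on the log2 scale (SE 0.033, 95% interval −0.20 to −0.066, adjusted p = 0.0254). With 0.01 µM the log2 fold change was −0.0099 (95% interval −0.078 to 0.058) and with 1 µM −0.0042 (95% interval −0.072 to 0.064). The call was lost without replicate 1, 3 or 4 (adjusted p = 0.109, 0.157 and 0.136) and when all 32 libraries shared one fit (adjusted p = 0.398). The summed liver transcripts moved with this group, with 516 to 620 counts against 305 to 390 in the control and 512 to 570 with 1 µM. The sum contains AHSG, ALB, AFP and APOB, which the study itself lists as differentially expressed at both 0.1 and 1 µM PFOS after 6 weeks. The part of these transcripts in the result for IGFBP4 was not tested.

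At 12 weeks IGFBP4 with 0.1 µM PFOS lay lower as well but did not pass. The control held 53.6, 52.8, 77.1 and 70.02 CPM and the exposed cells 45.4, 45.8, 50.1 and 50.9 CPM, with no overlap. The log2 fold change was −0.40 (SE 0.10, 95% interval −0.61 to −0.18, adjusted p = 0.0692). DESeq2 (adjusted p = 0.00995), the fit with the vial as replicate block (adjusted p = 0.0124), the fit of all 32 libraries (adjusted p = 0.00193) and the fit without replicate 1 (adjusted p = 0.0420) called it. Without the third control library at 12 weeks the log2 fold change was −0.29 (adjusted p = 0.237). The values were −0.17 (95% interval −0.38 to 0.038) with 0.01 µM and −0.11 (95% interval −0.32 to 0.097) with 1 µM.

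IGFBP5 showed the largest log2 fold change of the 9 genes against the control, with 0.1 µM PFOS at 12 weeks, and did not pass. The control held 4.54, 3.75, 7.24 and 3.51 CPM and the exposed cells 2.2, 3.04, 2.88 and 1.87 CPM. The groups did not overlap. The log2 fold change was −0.92 (95% interval −1.53 to −0.32, adjusted p = 0.139), called by DESeq2 alone (adjusted p = 0.0413), and −0.65 (adjusted p = 0.478) without the third control library. With 0.01 µM it was −0.69 (95% interval −1.28 to −0.099, adjusted p = 0.565), or −0.41 (adjusted p = 0.973) without that library, and with 1 µM −0.22 (95% interval −0.78 to 0.35).

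With the vial as replicate block, 3 of 9 genes passed at 0.1 µM and 6 weeks (5.76% of all genes) and 1 of 9 at 12 weeks (1.34%). The 2 genes added at 6 weeks were IGFBP3 (log2 fold change −0.41, adjusted p = 0.0828, and 0.0220 with the block) and IGF1R (−0.12, adjusted p = 0.0991, and 0.0357 with the block). IGFBP3 held 7.43, 7.79, 7.52 and 8.0 CPM with 0.1 µM PFOS against 7.96, 10.2, 9.595 and 13.1 CPM in the control, listed by vial, so it was lower in all 4 vials although the groups overlapped. IGF1R held 135, 136, 141 and 130 CPM against 149, 146, 152 and 142 CPM, without overlap.

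The remaining differences were small or imprecise. IGF2 with 0.1 µM PFOS at 6 weeks had 52, 45, 50 and 44 counts against 42, 32, 37 and 37 in the control, without overlap (log2 fold change 0.38, 95% interval 0.074 to 0.68, adjusted p = 0.138), and this group also had the highest liver sums of the 6-week groups (516 to 620). At 12 weeks the log2 fold changes of IGF2 were −0.67, −0.47 and −0.73 at 0.01, 0.1 and 1 µM with the third control library and 0.20, 0.39 and 0.13 without it, none of which passed. IGF2R lay between −0.12 and 0.12, IGFBP6 between −0.088 and 0.13, PAPPA between −0.33 and −0.016 and IGFBP2 between −0.45 and 0.089 on the log2 scale over the 6 comparisons. For IGFBP2 at 12 weeks the 95% intervals reached from −1.17 to 0.61, so a 2-fold decrease lay within them at 0.01 and 0.1 µM. For IGF2R no 95% interval went beyond −0.25 or 0.24. Groups did not overlap for IGFBP6 with 0.01 µM at 6 weeks (log2 fold change 0.13, adjusted p = 0.571) and for IGF2R with 1 µM at 12 weeks (0.12, adjusted p = 0.607), neither of which passed.

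**Figure D5:**
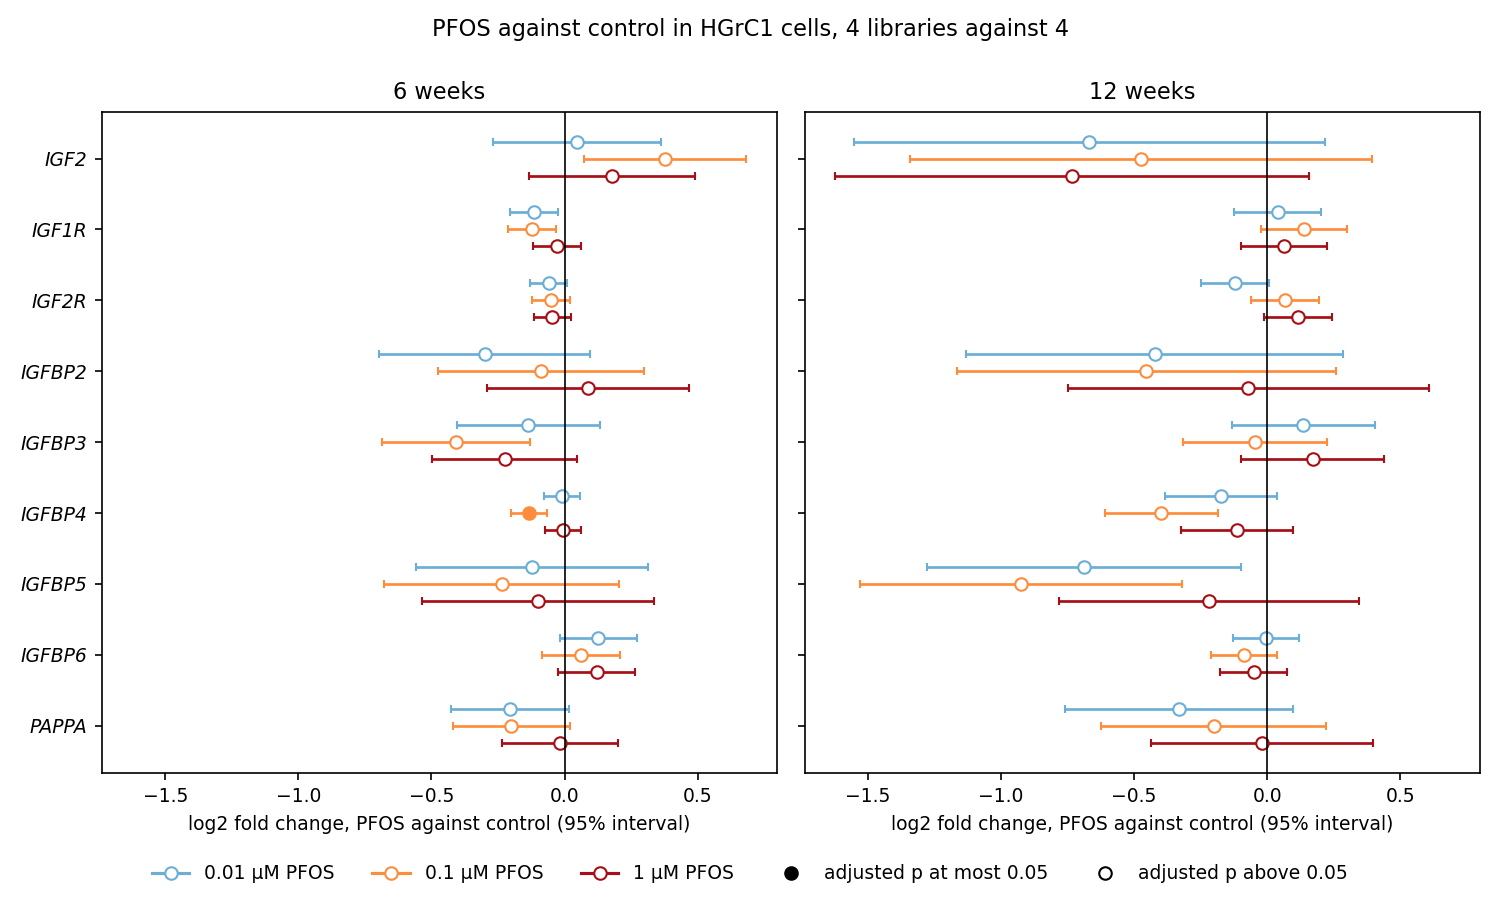
Log2 fold change of 9 genes at 0.01, 0.1 and 1 µM PFOS against the control at 6 weeks (left) and 12 weeks (right), with 95% intervals from the fit of the 16 libraries of each time; filled circles have an adjusted p of at most 0.05. The only filled circle is IGFBP4 at 0.1 µM and 6 weeks (−0.13), and the widest intervals are those of IGF2 at 12 weeks, where 1 control library had 128 counts.

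The effect of PFOS was also compared between the times. No difference of the effect passed for any of the 9 genes at any of the concentrations (edgeR and DESeq2, 0 of 9 each), where 0%, 0.208% and 0.123% of all genes passed in order of concentration, and 0, 2 and 1 of the 9 had an unadjusted p under 0.05, beside 7.48%, 14.5% and 12.1% of all genes. For IGF1R at 0.1 µM the log2 fold change was −0.12 at 6 weeks and 0.14 at 12 weeks, a difference of 0.26 ± 0.095 (SE, adjusted p = 0.189). For IGFBP4 at 0.1 µM the difference was −0.26 ± 0.10 (adjusted p = 0.231), and −0.16 (adjusted p = 0.508) without the third control library at 12 weeks. For IGF2R at 1 µM it was 0.17 ± 0.071 (adjusted p = 0.359). A response at one time and not at the other was therefore not shown for any of these genes.

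The middle and the highest concentration were compared directly, a contrast chosen after the data had been seen. Of the 9 genes 0 passed at either time by edgeR or DESeq2 (0.0857% of all genes at 6 weeks and 0% at 12 weeks), and 2 had an unadjusted p under 0.05 at each time, beside 6.26% and 7.72% of all genes. IGFBP4 was higher at 1 than at 0.1 µM by 0.13 ± 0.033 (95% interval 0.061 to 0.20, adjusted p = 0.230) on the log2 scale at 6 weeks and by 0.28 ± 0.10 (95% interval 0.070 to 0.50, adjusted p = 0.622) at 12 weeks, with no overlap at either time. For IGFBP5 at 12 weeks the difference was 0.71 ± 0.29 (adjusted p = 0.629).

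Of 37 further genes of the pathway, from insulin and IGF signaling to other binding proteins, proteases and their inhibitors, 36 had values, 32 were tested at each time and 33 in the fit of all libraries; H19 had no values. None of the 32 passed in any of the 6 PFOS comparisons in the main edgeR fit. At 0.01, 0.1 and 1 µM, 3, 6 and 4 at 6 weeks and 2, 6 and 2 at 12 weeks had an unadjusted p under 0.05. The shares of all genes at this threshold are given above (8.48% to 20.8%). DESeq2 called 0 in the other 5 comparisons and 2 at 0.1 µM and 6 weeks, FOXO3 (log2 fold change 0.17, adjusted p = 0.0490) and STC2 (−0.61, adjusted p = 0.0385). The edgeR fits with the replicate block and without the filter called FOXO3. A fit of only the 8 libraries compared called both (adjusted p = 0.0337 and 0.00433). STC2, an inhibitor of PAPPA, held 30.3 to 38.3 CPM there against 47.5 to 59.6 CPM in the control. At 0.1 µM and 12 weeks IGFBP7 (log2 fold change −0.23, adjusted p = 0.128) and TSC1 (0.21, adjusted p = 0.127) did not pass in the main fit. Both passed with all 32 libraries in one edgeR fit (adjusted p = 0.0220 and 0.0251) and without replicate 1 (adjusted p = 0.0373 and 0.0438). IGFBP1 was left out by the filter on low counts within each time, so these results do not cover it. Without PFOS its libraries at 6 weeks ranged over 0 to 2 counts, against 1 to 4, 3 to 7 and 5 to 14 with rising concentration. Groups did not overlap with the control at 0.1 and 1 µM at this time. At 12 weeks the control had 5, 9, 71 and 9 counts of IGFBP1. PFOS libraries then had 4 to 8, 3 to 12 and 1 to 11 counts in order of concentration, and all 3 groups overlapped the control. Without the filter, 1 of 36 pathway genes was called at 1 µM and 6 weeks. The fit of all 32 libraries called 0 of 33 there.

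Between 6 and 12 weeks, 15 of these 33 genes passed in the control (5 higher and 10 lower), 12 with 0.01 µM (4 and 8), 16 with 0.1 µM (7 and 9) and 17 with 1 µM PFOS (8 and 9), beside the shares of all genes given above. Without the third control library at 12 weeks 13 passed in the control, and 11, 15 and 16 at 0.01, 0.1 and 1 µM. STC1, a secreted inhibitor of PAPPA, fell furthest. It had 74, 46, 56 and 39 counts in the control at 6 weeks and 14, 5, 24 and 11 at 12 weeks, and 3 to 16 counts in the 12 PFOS libraries at 12 weeks. The log2 fold changes of STC1 were −1.98 ± 0.28 in the control and −3.73 ± 0.35, −3.26 ± 0.33 and −3.02 ± 0.30 at 0.01, 0.1 and 1 µM PFOS (adjusted p at most 1.11e-06). The difference of the PFOS effect on STC1 between the times did not pass (adjusted p = 0.473, 0.205 and 0.363). STC2 passed in the control (−0.46, adjusted p = 0.0375) and with 1 µM (−0.51, adjusted p = 0.0310), and had −0.41 and −0.11 with 0.01 and 0.1 µM (adjusted p = 0.0644 and 0.666), and its call in the control was lost when any of the 4 replicates was left out (adjusted p = 0.0524 to 0.124). HTRA1, a protease that also cleaves binding proteins, fell in all 4 treatments, with log2 fold changes from −1.12 to −0.73. PAPPA2, the relative of PAPPA, had 0.73 in the control (adjusted p = 0.0232), a call lost without the third control library at 12 weeks (0.58, adjusted p = 0.0943), and −0.18, −0.055 and 0.23 with PFOS (adjusted p = 0.537 to 0.880).

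Of the signaling genes, the adaptor gene SHC1 fell by 0.39 to 0.52 and the PI3K subunit gene PIK3R1 by 0.55 to 0.93 on the log2 scale in the 4 treatments, and the insulin receptor gene INSR passed in all 4 as well (−0.36, −0.47, −0.56 and −0.53; adjusted p = 0.0376, 0.00538, 0.00136 and 0.00304). The INSR call in the control was lost without the third control library (−0.36, adjusted p = 0.0578). MTOR, the kinase that couples growth to nutrients, fell in the control (−0.23) and with 0.01 µM (−0.26), and had −0.11 with 0.1 and 1 µM (adjusted p = 0.0360 and 0.0469), where the call with 1 µM was lost with the replicate block (adjusted p = 0.0572) and that with 0.1 µM without replicate 1, 2 or 3 (adjusted p = 0.0593 to 0.184). IRS1 passed in the control (0.25), with 0.1 µM (0.23) and with 1 µM (0.23), with adjusted p = 0.0291, 0.0443 and 0.0452, and in none of these without the third control library (adjusted p = 0.0566, 0.0521 and 0.0501). IRS2 had log2 fold changes between −0.089 and 0.12, none of which passed. IGF2BP3, which binds IGF2 mRNA, rose in all 4 treatments (0.24, 0.21, 0.31 and 0.18). Its relative IGF2BP1 rose in the 3 PFOS treatments (0.23, 0.35 and 0.30) and had 0.15 in the control (adjusted p = 0.0595), where it passed without the third control library (0.18, adjusted p = 0.0335). IGFBP7 fell in all 4 treatments (log2 fold change −0.28, −0.26, −0.40 and −0.27). IGFBP1, a binding protein made by liver and decidua, had 2, 2, 0 and 1 counts in the control at 6 weeks and 5, 9, 71 and 9 at 12 weeks (adjusted p = 0.000528, and 0.00365 without the third library). It did not pass in the PFOS groups (adjusted p = 0.417 to 0.807). The difference of the PFOS effect on IGFBP1 between the times passed at no concentration by edgeR, with an unadjusted p under 0.05 at 0.1 and 1 µM. A change in the control alone was therefore not shown. On the same scale, Pearson's r of IGFBP1 with the liver sum was 0.866 over 32 libraries and 0.611 over the 31 others.

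Vials differed from each other in ways that recurred over the groups. Vial 4 had the lowest IGFBP5 level in 8 of the 8 groups and the lowest IGF1R level in 6 of 8, and vials 1 and 2 had the lowest IGFBP4 level in 5 and 3 of 8. These counts were noticed after the values were seen and are given without a test. At 6 weeks IGFBP5 in vial 4 was 21.6 to 25.3 CPM, against 30.7 to 41.7 CPM in the other vials. The group means at this time lay between 30.0 and 35.3 CPM.

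Over the 32 libraries, the genes whose log2(CPM + 1) followed the 4 most variable members most closely were named from 12157 genes with a mean of at least 1 CPM. For IGFBP5 they were CEMIP (Pearson's r = 0.990), TGFBI (0.988) and ENG (0.987). For IGFBP4 they were NT5E (0.966), LAMA4 (0.966) and CD44 (0.960), for IGFBP3 PACSIN3 (0.961), AIF1L (0.936) and CCDC88C (0.930), and for IGFBP2 CALHM5 (0.924), LIMCH1 (0.915) and FERMT3 (0.912). The libraries share vials and groups, and the coefficients include the step between 6 and 12 weeks. With each library centred on its group mean, the closest genes were others, such as PPP4R4 (0.821) for IGFBP5 and LYPD6B (0.861) for IGFBP4.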

How the data were processed

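RNA was sequenced as 32 stranded poly(A) libraries on the DNBSEQ platform. Per the submitters' processing notes the tools were HISAT2 2.0.4, Bowtie2 2.2.5 and RSEM 1.2.8 with GRCh38.p14. The authors deposited expected counts per gene from RSEM, 92.3% of them whole numbers, which were rounded to whole numbers here, and TPM values, which were used for levels per length only. FPKM and normalized counts were not used. Total counts were 17907067 to 18553355 per library.

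Groups came from the sample titles. Counts were tested with edgeR 4.0.16 in R 4.3.3 (TMM, filterByExpr, robust quasi-likelihood F test, Benjamini-Hochberg adjustment over all genes tested), and a gene was called at an adjusted p of at most 0.05. PFOS groups were compared with their control within the 16 libraries of a time. Comparisons of 12 with 6 weeks, and the difference of the PFOS effect between times, used 1 fit of all 32 libraries. CPM were counts scaled by TMM-normalized library size. IGF1, below the filter, was tested by exact permutation of log2(CPM + 1). The scripts were tested on simulated data. Alternatives were RLE size factors, DESeq2 1.42.0, no filter on low counts, the vial as replicate block, other sets of libraries, and leaving out each replicate or the third control library at 12 weeks.

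Replicate numbers mark vials, each of which was divided over the 4 treatments, so they pair the samples. As a check, the mean correlation of same-numbered libraries' deviations from their group means was 0.0539 to 0.140 over 6 pairs of groups at 6 weeks, −0.176 to 0.158 over 6 pairs at 12 weeks and 0.0219 to 0.102 over 4 pairs between times. The value of −0.176 belongs to control and 1 µM PFOS at 12 weeks, where the pairing is uncertain.

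The 10 genes and the lists were chosen with earlier results of these data known. All 10 genes were named in every comparison where they passed and at least once with their level in every group. Genes of the pathway list were named where they passed, at most 6 per comparison by adjusted p, along with IGFBP1, IGFBP7, PAPPA2, STC1, STC2, INSR, IRS1 and IRS2 whatever their result. The genes of most similar pattern were the 3 with the highest Pearson's r, for the 4 members with the widest range of group means.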

Additional observations from a re-analysis of the deposited data

Results flagged for a closer look

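In 6 of 72 groups of 4 libraries, 1 library lay far from the other 3 by Dixon's test at its 95% level, which chance does in about 1 of 20 groups. IGF2 was 7.02 CPM in the third control library at 12 weeks, the library with 1709 counts of liver transcripts. IGF1R was 133 CPM in the second library with 0.1 µM PFOS at 12 weeks. IGF2R was 267 CPM in the second library with 1 µM PFOS at 12 weeks. IGFBP3 was 7.39 CPM in the third library with 0.01 µM PFOS at 6 weeks. IGFBP6 was 35.9 CPM in the second control library and 40.3 CPM in the first library with 0.01 µM PFOS, both at 12 weeks.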

How the results depend on the processing

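Of 9 genes, 1 passed with 0.1 µM PFOS at 6 weeks; this count was 3 with the vial as replicate block, 0 with all 32 libraries in one fit and 0 to 1 when a replicate was left out (0 without replicate 1, 3 or 4). With 0.1 µM at 12 weeks the count was 0; it was 2 by DESeq2, 1 with the replicate block, 1 with all 32 libraries in one fit and 0 to 1 when a replicate was left out (1 without replicate 1). The replicate block changed no other count of these genes by more than 1.5 times. Of the values over all comparisons and alternatives, 142 counts kept their size and 9 moved. For single genes, 427 values kept their direction and side of the threshold, 15 lost the call, 9 gained it and 8 changed sign. The 8 were IGF2 at 12 weeks and depended on the third control library. When a replicate was left out, its log2 fold change ran from −0.93 to 0.25 with 0.01 µM, from −0.81 to 0.44 with 0.1 µM, from −1.03 to 0.27 with 1 µM and from −0.31 to 0.82 for the control at 12 against 6 weeks, the end of opposite sign being that without replicate 3. Without the third control library alone the values were 0.20, 0.39, 0.13 and −0.31. The comparison of 1 with 0.1 µM was chosen after seeing the data. Among pathway genes named for 12 against 6 weeks, calls of INSR (control, 0.01 µM), IRS1 (control, 0.1 and 1 µM), PAPPA2 (control), STC2 (control, 1 µM), MTOR (0.1 and 1 µM) and IGF2BP1 (0.01 µM) were lost in at least 1 fit that left out a replicate. Low counts limit the precision for IGF1, IGF2, IGFBP2, IGFBP1, PAPPA2 and STC1.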
